A study of Homo sapiens with 6 samples.

Results

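Matrix metalloproteinases (MMP), ADAMTS proteases and their tissue inhibitors (TIMP) were compared in hFOB 1.19 cells, which derive from osteoblasts of a human fetus and divide without limit while a large T antigen is active at low temperature. The genes were chosen by name: every MMP or ADAMTS symbol followed by a number, and TIMP1 to TIMP4. This gave 47 of the 35639 genes in the table, namely 24 MMP, 19 ADAMTS and 4 TIMP genes. Cells were transduced with a lentivirus that held no histone (empty vector, EV) or a Drosophila H3.3 cDNA with an HA tag at its C terminus, either wild-type (H3.3-WT) or with the G34W change (H3.3-G34W). Their own H3.3 genes were still present. They were sorted in bulk for the fluorescent protein encoded by the vector, so each line is a mixed population and not a clone, and were kept at 34 °C and collected 15 days after transduction. The comparisons used 5 poly(A) RNA-seq libraries: EV replicate 2, H3.3-WT replicates 1 and 2, and H3.3-G34W replicates 1 and 2. EV replicate 1, listed at 0 for 33 of the 47 genes and 28688 of all 35639, was left out. EV is therefore a single library, and a difference from EV has no replicate check on the EV side. Groups follow the library titles. The genotype field gives H3.3-WT and H3.3-G34W the other way round, and if that field were right the sign of every difference between these lines would swap. The values used here are of human genes, so the fly transgene was not used to check the labels. SCUBE3, a secreted protein of osteoblasts chosen after its values were seen, was at 535 in EV, 520.4 and 560 in the libraries titled H3.3-WT, and 117 and 137 in those titled H3.3-G34W. It is not stated whether the 2 libraries of a line came from separate infections. In these bulk libraries a smaller number of cells of a type and less RNA per cell cannot be told apart.

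MMPs are zinc-dependent endopeptidases that cut collagens and other matrix proteins, either as secreted enzymes or anchored at the cell surface. ADAMTS enzymes are secreted relatives with thrombospondin repeats that bind the matrix, and they trim proteoglycans, procollagens and other matrix proteins. TIMPs occupy the active site of MMPs, and TIMP3 also inhibits several ADAMTS enzymes; in bone, osteoblast-lineage cells use this system to remodel the collagen matrix.

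Values are normalised estimated counts, which are scaled between libraries but not for gene length. Column totals were 41985190 in EV, 40778682 and 48024590 in H3.3-WT, and 38821143 and 44687077 in H3.3-G34W, and the depth in reads is unknown. Below, values are given in this order throughout: EV, H3.3-WT replicates 1 and 2, H3.3-G34W replicates 1 and 2. One library stood apart from the rest. Across the 16259 genes with a mean of at least 10 over the 5 libraries, the log values of H3.3-G34W replicate 1 correlated with those of the other libraries at 0.906 to 0.916, whereas the other libraries correlated with each other at 0.962 to 0.974; these are correlations across genes, which are not independent replicates. All 12 markers of pluripotent stem cells were highest in this library. Their summed values were 932, 849, 824, 64892 and 704. Their part in any difference between the lines was not tested, and the fold changes of MMP, ADAMTS and TIMP genes between the histone lines are also given without this library. POU5F1, a transcription factor of pluripotent cells with the highest value among them in this library, was at 41.6, 47.3, 75.4, 19441 and 65.7. The DNA methyltransferase DNMT3B, the highest of them in the other 4, was at 541, 515, 458, 13081 and 395, and none of the 12 was at 0 in H3.3-G34W replicate 1. Among 5 epithelial genes, EPCAM, an adhesion molecule, was at 46.6, 18.2, 9.97, 2175 and 43.9, and CDH1 at 60.9, 51.5, 39.9, 2104 and 64.9. KRT19 was at 331, 296, 687, 1411 and 757, with both H3.3-G34W values above those of EV and H3.3-WT. KRT8 and KRT18 overlapped between the lines. The sum of the 5 genes, led by the keratin KRT18, was 47057, 36108, 47217, 43078 and 37159.9. Of 9 osteoblast-lineage markers, COL1A2 and SPARC were the most abundant, with COL1A2 at 111335, 98769, 90033.6, 91016 and 138799. The 9 markers, led by COL1A2, summed to 219511, 202116, 213763, 191688 and 261508. The transcription factor RUNX2 was at 573, 387, 430, 236 and 445. Among the markers of bone formation, ALPL was at 428, 245, 236, 1216 and 107, and SPP1 ranged from 171 to 649. BGLAP was at 5.55, 44.9, 39.3, 4.08 and 27.4, with both H3.3-G34W values under both H3.3-WT values. SP7 did not exceed 6.03, and IBSP was at 0 in all libraries but EV, where it was at 2.50.

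Levels differed by orders of magnitude among the genes. Of the 47, 33 reached a mean of 10 and were tested, 14 did not, and 2 of these (MMP20 and MMP26) were at 0 in all 5 libraries. Divided by the length of the canonical transcript, the membrane-type MMP14 was the most abundant, with a mean level of 10095 normalised estimated counts per kb. TIMP1, TIMP2 and TIMP3 followed at 6382, 2558 and 2082 per kb, ahead of ADAMTS1 at 1424.5 and MMP2 at 587 per kb. ADAMTS6 and ADAMTS12 stood at 449.9 and 340.3 per kb. Of the remaining genes, none had a mean above 142 per kb, the level of ADAMTS7.

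**Figure D1:**
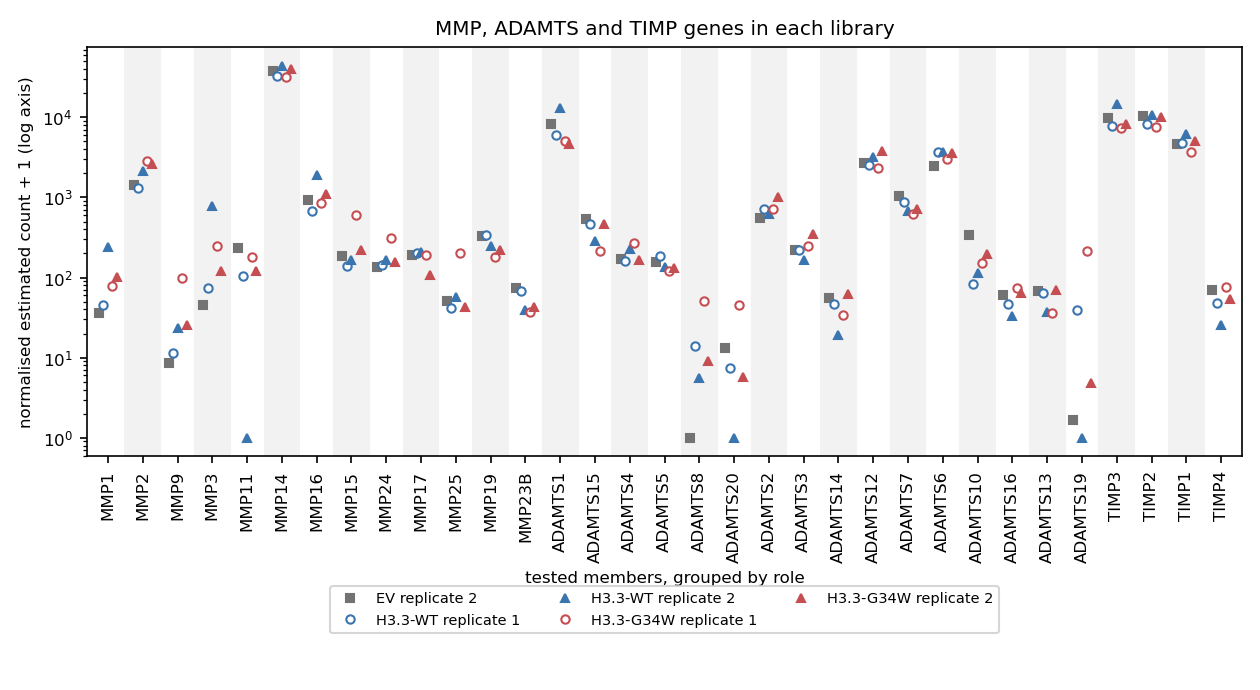
Normalised estimated counts plus 1 (log axis) of the 33 tested MMP, ADAMTS and TIMP genes in each of the 5 libraries, grouped by role. MMP14 lies highest, from 32156 to 44148, and for most genes the points of H3.3-WT (blue) and H3.3-G34W (red) interleave.

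Promoters of 27 of the 47 genes (28 sequences of 300 bases, from 250 before to 50 after the start) were matched by symbol in RefSeq on GRCh38.p14. They are shown for the most abundant protease, MMP14, and a main inhibitor, TIMP3, and for 2 MMP genes near 0 in these cells, MMP10 and MMP7, as examples with and without the motifs counted here. Capitals mark TATAAA (the TATA box), TGANTCA (the AP-1 element) and GGGCGG (the GC box), each searched on both strands. No base was shared by 2 different motifs in a member's promoter, whereas neighbouring GGGCGG matches shared bases in ADAMTS2, ADAMTS7, ADAMTS10 and ADAMTS14.
MMP14, chr14:22836335-22836634, plus strand: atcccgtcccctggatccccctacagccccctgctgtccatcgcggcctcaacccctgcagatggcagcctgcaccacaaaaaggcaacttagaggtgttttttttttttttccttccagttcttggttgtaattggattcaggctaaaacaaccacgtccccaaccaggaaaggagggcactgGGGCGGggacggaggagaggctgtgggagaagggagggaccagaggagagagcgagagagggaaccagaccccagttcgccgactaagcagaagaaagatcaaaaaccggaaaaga
TIMP3, chr22:32801455-32801754, plus strand: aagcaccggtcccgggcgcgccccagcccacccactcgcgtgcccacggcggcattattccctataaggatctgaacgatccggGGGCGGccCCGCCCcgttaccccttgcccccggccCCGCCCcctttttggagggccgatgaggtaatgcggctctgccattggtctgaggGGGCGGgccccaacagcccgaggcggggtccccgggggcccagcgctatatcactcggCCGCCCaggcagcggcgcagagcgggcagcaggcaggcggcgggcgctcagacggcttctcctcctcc
MMP10, chr11:102780579-102780878, minus strand: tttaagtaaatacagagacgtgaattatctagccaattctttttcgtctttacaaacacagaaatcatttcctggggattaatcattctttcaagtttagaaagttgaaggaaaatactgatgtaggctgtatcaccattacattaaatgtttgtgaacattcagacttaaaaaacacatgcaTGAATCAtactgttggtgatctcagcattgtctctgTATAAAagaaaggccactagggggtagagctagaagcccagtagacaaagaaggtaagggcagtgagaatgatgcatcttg
MMP7, chr11:102530698-102530997, minus strand: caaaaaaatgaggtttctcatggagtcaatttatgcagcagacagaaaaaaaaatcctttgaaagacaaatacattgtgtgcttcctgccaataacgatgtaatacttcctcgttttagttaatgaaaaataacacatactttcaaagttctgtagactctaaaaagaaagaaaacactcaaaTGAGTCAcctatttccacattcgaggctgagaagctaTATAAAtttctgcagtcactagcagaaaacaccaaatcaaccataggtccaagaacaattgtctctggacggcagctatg
MMP10 and MMP7 carry TATAAA starting 31 and 30 bases before the start, and TGANTCA starting 67 bases before it in both; MMP14 and TIMP3 carry neither, and have 1 and 5 copies of GGGCGG. Among the 18 tested members with a promoter, 17 held GGGCGG (all but ADAMTS6), against 2 of the 9 under the minimum mean and 45.0% of all 35116 promoters. TATAAA was present in 1 of the 18 (ADAMTS10, in 1 of its 2 promoters) and in 6 of the 9 (MMP7, MMP8, MMP10, MMP20, MMP21 and MMP26), against 11.5% of all promoters. Its position varied. It began 28 bases before the start in MMP26, but 72 in MMP20, 92 in MMP21 and 110 in MMP8. In ADAMTS10 it was read as TTTATA, 78 bases before the start. TGANTCA was found in 1 of the 18 (ADAMTS12) and in 3 of the 9 (MMP7, MMP10 and MMP20), against 7.71%. These are matches of letters only, no test was run between the groups of genes, and the 18 include genes of low mean such as ADAMTS20. Promoters were at hand for 18 of the 33 tested members and 9 of the 14 under the minimum mean. The shares leave out the rest of each group, MMP1, MMP2, MMP3 and MMP9 among the tested. Not in the table were ADAMTS1, ADAMTS4, ADAMTS5, ADAMTS8, ADAMTS9, ADAMTS15, ADAMTS16, MMP1, MMP2, MMP3, MMP9, MMP12, MMP13, MMP16, MMP17, MMP19, MMP23A, MMP25, MMP28 and TIMP2.

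The study sequenced these lines in search of factors that act on osteoclasts. Mutant and wild-type lines both received added H3.3, so their comparison is meant to bear on the G34W change. Transgene levels of the lines were not compared here, and other differences between the libraries remain in this contrast. The gelatinase MMP2 stood at 2810.1 and 2621 in the mutant libraries and 1294 and 2162 in the wild-type ones, and the proteoglycan-cleaving ADAMTS1 at 4986 and 4659 against 5977 and 12970.2. MMP14 and the abundant inhibitors TIMP1, TIMP2 and TIMP3 overlapped between the lines. No member passed the threshold. With limma on log2(value + 1) and Benjamini-Hochberg adjustment over all 16259 genes, 0 genes had an adjusted p under 0.05 (0% of the genes tested), and 0 members. At an unadjusted p under 0.05 there were 439 genes (2.7%), among them 4 of the 33 tested members: MMP2, MMP11 and MMP15 with positive and ADAMTS1 with negative fold changes, each with an adjusted p of 0.9998. Both H3.3-G34W libraries lay above both H3.3-WT libraries for 9 members (MMP2, MMP9, MMP11, MMP15, ADAMTS2, ADAMTS3, ADAMTS10, ADAMTS16 and TIMP4), where 11.6% of all genes did so. They lay below for 5 members (MMP17, MMP19, ADAMTS1, ADAMTS5 and ADAMTS6), beside 14.7% of all genes. When EV was counted with the wild type, 6 members lay above (MMP2, MMP9, MMP15, ADAMTS2, ADAMTS3 and ADAMTS16) and 4 below (MMP17, MMP19, ADAMTS1 and ADAMTS5), beside 1280 and 1553 of the 16259 genes. The median log2 fold change was 0.05 over the members and -0.06 over all genes tested. By class it was -0.10 for the 13 tested MMP genes, 0.26 for the 16 ADAMTS genes and -0.22 for the 4 TIMP genes. ADAMTS8 and ADAMTS20 reached the minimum mean only through H3.3-G34W replicate 1, and without them the medians were 0.03 over the other 31 members and 0.10 over the other 14 ADAMTS genes. Without H3.3-G34W replicate 1, again 0 genes passed, 226 genes and 0 members had an unadjusted p under 0.05, and the medians were 0.05 and 0.04. Leaving out each library of these lines in turn gave member medians between 0.05 and 0.27 and 226 to 1510 genes at an unadjusted p under 0.05, the most without H3.3-G34W replicate 2. With a constant prior variance, 486 genes and 0 members had an unadjusted p under 0.05 (limma). With 2 libraries against 2, the smallest p a two-sided exact permutation test of a single gene can give is 0.333. Fold changes are on the log2(value + 1) scale, which understates the change of low genes.

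**Figure D2:**
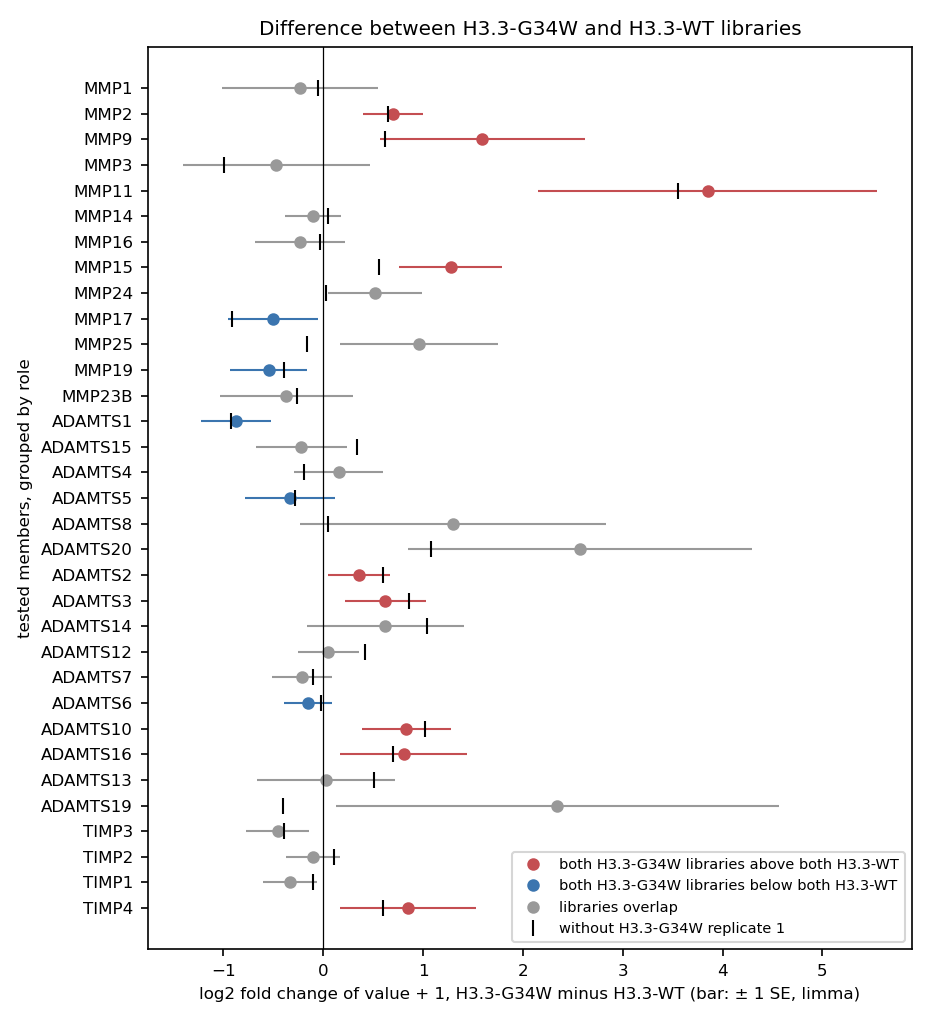
Log2 fold change of value + 1, H3.3-G34W minus H3.3-WT, for the 33 tested genes with limma standard errors; black ticks give the value without H3.3-G34W replicate 1. Red and blue points mark the 9 genes whose H3.3-G34W libraries both lie above, and the 5 whose libraries both lie below, those of H3.3-WT.

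Among the membrane-type MMPs, MMP14 (ENSG00000157227; chr14:22836585-22847758, GRCh38.p14), which cuts fibrillar collagen at the cell surface and activates proMMP2, was at 37632, 33185, 44148, 32156 and 39679.5. Its highest library was H3.3-WT replicate 2 and its lowest H3.3-G34W replicate 1, and the groups overlapped, with a log2 fold change of -0.10 ± 0.28 (SE, limma) that turned to 0.05 without H3.3-G34W replicate 1 and to 0.11 without H3.3-WT replicate 2. MMP16, a second collagen-cutting surface protease, was at 928, 681, 1905, 845 and 1115. H3.3-WT replicate 2 was highest and replicate 1 of the same line lowest, so that both H3.3-G34W values fell between them. MMP15, another membrane-spanning member, was at 182, 137, 165, 601 and 221. Both H3.3-G34W libraries lay above EV and H3.3-WT, by a wide margin only in replicate 1. The log2 fold change of 1.28 ± 0.51 (unadjusted p = 0.035, limma) was 0.56 without that library. MMP24, found mainly in neural tissue, was at 135, 142, 165, 309 and 157, again highest in H3.3-G34W replicate 1, and its log2 fold change of 0.52 was 0.03 without it. Its gene overlaps MMP24OS, which stood between 972 and 1981, and reads of the 2 genes cannot be told apart where counting ignores strand. MMP17, which is anchored by a lipid, was at 192, 202, 205, 191 and 107. H3.3-G34W replicate 2 was low while the other 4 libraries lay close together, with both mutant values under both wild-type values. MMP25, also lipid-anchored and known from neutrophils, was chosen after its values were seen and was at 49.5, 40.6, 55.4, 203 and 42.4. H3.3-G34W replicate 1 alone was high, and the log2 fold change of 0.96 turned to -0.16 without it.

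The gelatinase MMP2 (ENSG00000087245; chr16:55478830-55506691), which degrades denatured collagen and basement membrane and is activated by MMP14 together with TIMP2, was at 1427, 1294, 2162, 2810.1 and 2621. Both H3.3-G34W libraries lay above the other 3, with H3.3-WT replicate 2 nearest to them. Its log2 fold change against H3.3-WT was 0.70 ± 0.30 (unadjusted p = 0.046, limma), 0.65 without H3.3-G34W replicate 1 and between 0.33 and 1.07 when each library was left out in turn. Against EV it was 0.93 (unadjusted p = 0.033, limma). MMP9, the other gelatinase and abundant in osteoclasts, was at 7.50, 10.6, 22.6, 96.7 and 24.4. The H3.3-G34W libraries did not overlap the others, but replicate 2 was only slightly above H3.3-WT replicate 2. The log2 fold change of 1.60 ± 1.02 was 0.62 without H3.3-G34W replicate 1. Of 9 macrophage and osteoclast markers, TYROBP was at 0 in all libraries and DCSTAMP in all but EV, and their sums, led by CD68, were 1541, 1282, 1565, 1257 and 1391. ACP5, the tartrate-resistant phosphatase of osteoclasts, was chosen after its values were seen. It was at 48.7, 29.6, 64.5, 144 and 26.4, highest in the same library as MMP9. Of the 9 markers, 3 were highest in that library, ACP5 among them. CTSK, at 74.6, 107, 83.3, 78.2 and 102.5, was highest in H3.3-WT replicate 1. CSF1R, at 92.0, 65.8, 142.6, 99.5 and 39.7, was highest in H3.3-WT replicate 2. The part of ACP5 in the MMP9 values was not tested.

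The secreted collagenases and stromelysins were low and varied between libraries of a line. A run of 9 MMP genes lies side by side at chr11:102520508-102955732 (GRCh38.p14), and 2 of them, MMP1 and MMP3, reached the minimum mean. MMP3, a stromelysin that cuts proteoglycans and activates other MMPs, was at 44.7, 73.0, 772, 248 and 119. H3.3-WT replicate 2 was highest, 10.6 times replicate 1 of the same line, and the H3.3-G34W values lay between those 2. MMP1, a collagenase of fibrillar collagen was chosen after its values were seen and was at 35.0, 45.0, 239.7, 77.8 and 101. It showed the same order as MMP3 for EV and the H3.3-WT libraries, with the H3.3-G34W libraries again between them. The log2 fold changes of MMP3 and MMP1 were -0.47 ± 0.94 and -0.23 ± 0.78 (SE, limma). Without H3.3-WT replicate 2 they turned to 1.22 and 0.96, and that of MMP3 was also positive, at 0.06, without H3.3-G34W replicate 2. Without H3.3-G34W replicate 1 they were -0.997 and -0.05. MMP11, a stromelysin by name that is activated inside the cell by furin, was at 232, 102, 0, 180.2 and 118. H3.3-WT replicate 2 was listed at 0 and the other 4 libraries were above 100, with EV highest. Its log2 fold change of 3.85 ± 1.70 (unadjusted p = 0.049, limma) was 0.51 without that library and 3.55 without H3.3-G34W replicate 1. Without H3.3-WT replicate 1, which leaves the 0 as the only wild-type value, it was 7.20 with an adjusted p of 0.0168 (limma), and over the other alternatives its adjusted p ran from 0.655 to 1. The collagenases MMP8 and MMP13 and the stromelysin MMP10 were at 13.3 or less in all 5 libraries, as were the matrilysins MMP7 and MMP26.

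The remaining MMPs were led by MMP19, a protease with broad matrix substrates, at 327, 334, 249.8, 177 and 220.3. Both mutant libraries were under the other 3, with a log2 fold change of -0.55 ± 0.39 (SE, limma), and -0.39 without H3.3-G34W replicate 1. MMP23B had values from 35.8 to 73.0 with overlapping groups; its near-identical neighbour MMP23A was above 0 only in H3.3-G34W replicate 1, and estimated counts of the pair are uncertain because reads of either can be assigned to the other. MMP12, MMP20, MMP21, MMP27 and MMP28 did not exceed 7.98.

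Of the proteoglycan-cleaving ADAMTS genes, ADAMTS1 (ENSG00000154734; chr21:26835755-26845409), which cuts versican and aggrecan, was by far the most abundant, at 8324, 5977, 12970.2, 4986 and 4659. Both mutant libraries were under the other 3. The log2 fold change against H3.3-WT was -0.87 ± 0.35 (unadjusted p = 0.035, limma), and the 2 wild-type libraries themselves differed. Without replicate 2 of that line it was -0.31, without replicate 1 -1.43. It was -0.92 without H3.3-G34W replicate 1. ADAMTS15, a relative that also cuts versican, was at 538, 465, 284, 212 and 461, and its groups overlapped, with a log2 fold change of -0.22 that turned to 0.34 without H3.3-G34W replicate 1. ADAMTS4 and ADAMTS5 are the main aggrecanases of cartilage. ADAMTS4 was at 169, 161, 225, 270.4 and 167, and ADAMTS5 at 153, 184, 134, 121 and 129. For ADAMTS4 the groups overlapped and the log2 fold change of 0.16 turned to -0.19 without H3.3-G34W replicate 1, and for ADAMTS5 the H3.3-G34W values lay just under the lower H3.3-WT value. ADAMTS8, ADAMTS9 and ADAMTS20 did not exceed 50.6. ADAMTS8 and ADAMTS20 reached the minimum mean of 10 only through H3.3-G34W replicate 1, with means of 6.42 and 5.87 over the other libraries.

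The procollagen N-proteinases remove the amino-terminal propeptide of fibrillar procollagens. ADAMTS2, which processes type I procollagen, was at 555, 706, 617, 722 and 999. ADAMTS3, which acts on type II procollagen and on the lymphatic growth factor VEGFC, was at 223, 219, 165, 249 and 346. Both genes were highest in H3.3-G34W replicate 2, and for both the 2 H3.3-G34W libraries lay above the other 3. For ADAMTS2 the lower H3.3-G34W value exceeded the higher H3.3-WT value by little (722 against 706). Their log2 fold changes were 0.36 ± 0.31 and 0.62 ± 0.40 (SE, limma), 0.60 and 0.86 without H3.3-G34W replicate 1, and 0.13 and 0.39 without H3.3-G34W replicate 2. ADAMTS14, the third enzyme, ranged from 18.0 to 60.4 with overlapping groups.

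ADAMTS7 and ADAMTS12 cut cartilage oligomeric matrix protein. ADAMTS7 was at 1046, 864, 677, 615 and 711, and ADAMTS12 at 2669, 2549, 3232, 2306 and 3831. Groups overlapped for both, with EV highest for ADAMTS7 and H3.3-G34W replicate 2 for ADAMTS12. Pseudogenes of ADAMTS7 are listed in the table, so its estimate may share reads with them.

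Among the other ADAMTS genes, ADAMTS6, which acts on microfibril and adhesion proteins, was at 2479.9, 3679.6, 3653, 3001 and 3626. EV was lowest, the H3.3-WT libraries almost equal, and H3.3-G34W replicate 2 just under them. Its log2 fold change of -0.15 was -0.02 without H3.3-G34W replicate 1. ADAMTS10, which binds fibrillin-1 and supports microfibril assembly, was at 339, 81.4, 114, 151 and 196. EV was highest, both H3.3-WT libraries were lowest and the mutant libraries lay between, without overlap. Its log2 fold change was -1.81 ± 0.55 for H3.3-WT against EV (unadjusted p = 0.0093, adjusted p = 1, limma) and 0.83 ± 0.45 for the mutant minus the wild type, or 1.02 without H3.3-G34W replicate 1. ADAMTS19, singled out after its values were seen, was at 0.655, 38.7, 0, 213.7 and 3.77. Replicate 1 of each histone line was above the rest, and its log2 fold change of 2.35 turned to -0.40 without H3.3-G34W replicate 1. ADAMTS13, which overlaps REXO4, and ADAMTS16 ranged from 31.9 to 73.0, and ADAMTS17 and ADAMTS18 did not exceed 24.8.

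Of the inhibitors, TIMP1, a broad inhibitor of secreted MMPs, was at 4599, 4834, 6257, 3725 and 5122. TIMP2, which both inhibits MMP14 and helps it to activate proMMP2, was at 10238, 8143, 10714, 7546 and 10069. TIMP3, which is bound to the matrix and also inhibits ADAMTS enzymes, was at 9851, 7854, 14540.4, 7452 and 8153. For all 3, H3.3-WT replicate 2 was highest and H3.3-G34W replicate 1 lowest, and the groups overlapped. Their log2 fold changes were -0.33 ± 0.27, -0.10 ± 0.27 and -0.46 ± 0.31 (SE, limma); without H3.3-G34W replicate 1 they were -0.10, 0.11 and -0.39, and without H3.3-WT replicate 2 they were -0.15, 0.10 and -0.01. TIMP4 was low, from 24.8 to 74.7, with both H3.3-G34W values above both H3.3-WT values and EV between the 2 H3.3-G34W values. TIMP1, TIMP3 and TIMP4 overlap the synapsin genes SYN1, SYN3 and SYN2, which were highest in H3.3-G34W replicate 1, at 119, 406.6 and 103. For TIMP4, at 74.7 in that library, the synapsin value was the larger, and whether counting used strand is not stated.

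Summed per kb of transcript, the 24 MMP genes reached 11144, 9843, 13554, 10309 and 11998, of which MMP14 made up 91.2%, 91.1%, 88.0%, 84.3% and 89.4%. The 19 ADAMTS genes summed to 2807, 2430.5, 3750.4, 2108 and 2370.3 per kb, with the mutant sums below the other 3. Without ADAMTS1 the other 18 summed to 1201, 1277, 1248, 1146 and 1471 per kb, so that H3.3-G34W replicate 2 was highest. The 4 TIMP genes summed to 10985, 10264, 14254, 8594 and 11235 per kb. TIMP and MMP sums were highest in H3.3-WT replicate 2, the library with the largest total, and overlapped between the lines. The ratio of the TIMP sum to the sum of all 43 proteases was 0.787, 0.836, 0.824, 0.692 and 0.782. Both H3.3-G34W ratios were the lowest, although replicate 2 was close to EV, and no test was run on this ratio.

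**Figure D3:**
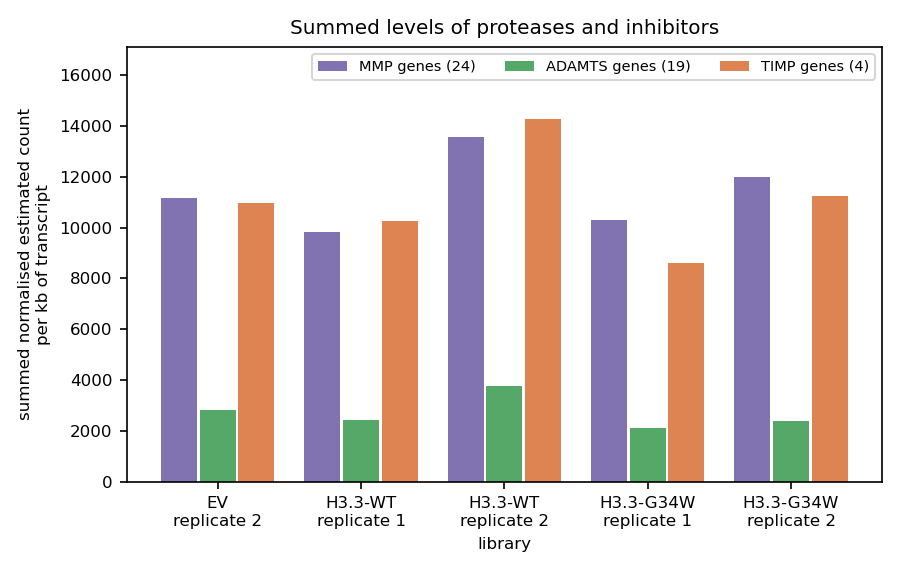
Normalised estimated counts per kb of canonical transcript, summed over the MMP, ADAMTS and TIMP genes in each library (single values, no error bars). H3.3-WT replicate 2 has the tallest bars in all 3 classes, and the ADAMTS bars of both H3.3-G34W libraries are the lowest of their class, an order that does not hold without ADAMTS1.

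The comparisons with EV ask how each histone line differed from cells with the vector alone, and both use the same EV library. MMP2 was at 1427 in EV, under both mutant values, and ADAMTS10 at 339, above both wild-type values. For H3.3-G34W against EV, limma gave 0 genes at an adjusted p under 0.05 (0%) and 317 at an unadjusted p under 0.05 (1.95%), with 2 members, MMP2 and ADAMTS8, of which ADAMTS8 was tested only because H3.3-G34W replicate 1 lifted its mean. For H3.3-WT against EV it gave 0 (0%) and 157 (0.966%), with 1 member, ADAMTS10. The median log2 fold change of the members was 0.07 for H3.3-G34W and 0.03 for H3.3-WT, beside -0.03 and 0.02 over all genes. For H3.3-G34W it was -0.07 at a mean of at least 50 and -0.01 without H3.3-G34W replicate 2. For H3.3-WT it was -0.06 with the replicate block and -0.14 without H3.3-WT replicate 2. Under no other alternative was either median below 0. The counts by unadjusted p against EV also moved when a H3.3-G34W library was left out, which leaves 1 library on each side.

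Among the 33 tested members, H3.3-G34W replicate 1 was the highest library for 11 (33.3%) and H3.3-WT replicate 2 for 9 (27.3%), against 20% and 30.8% of all genes tested. For ADAMTS8 and ADAMTS20, 2 of the 11, the minimum mean fixed this. Between the 2 H3.3-WT libraries, 10 of the 33 members (30.3%) differed by more than 2-fold, beside 14.2% of all genes, and between the 2 H3.3-G34W libraries 8 (24.2%), beside 17.2%, or 6 of 31 without ADAMTS8 and ADAMTS20. MMP1, MMP3, MMP16, ADAMTS1 and TIMP3 were among those highest in H3.3-WT replicate 2, whereas MMP9, MMP15, MMP24, MMP25 and ADAMTS19 were highest in H3.3-G34W replicate 1, the library with the stem cell transcripts.

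**Figure D4:**
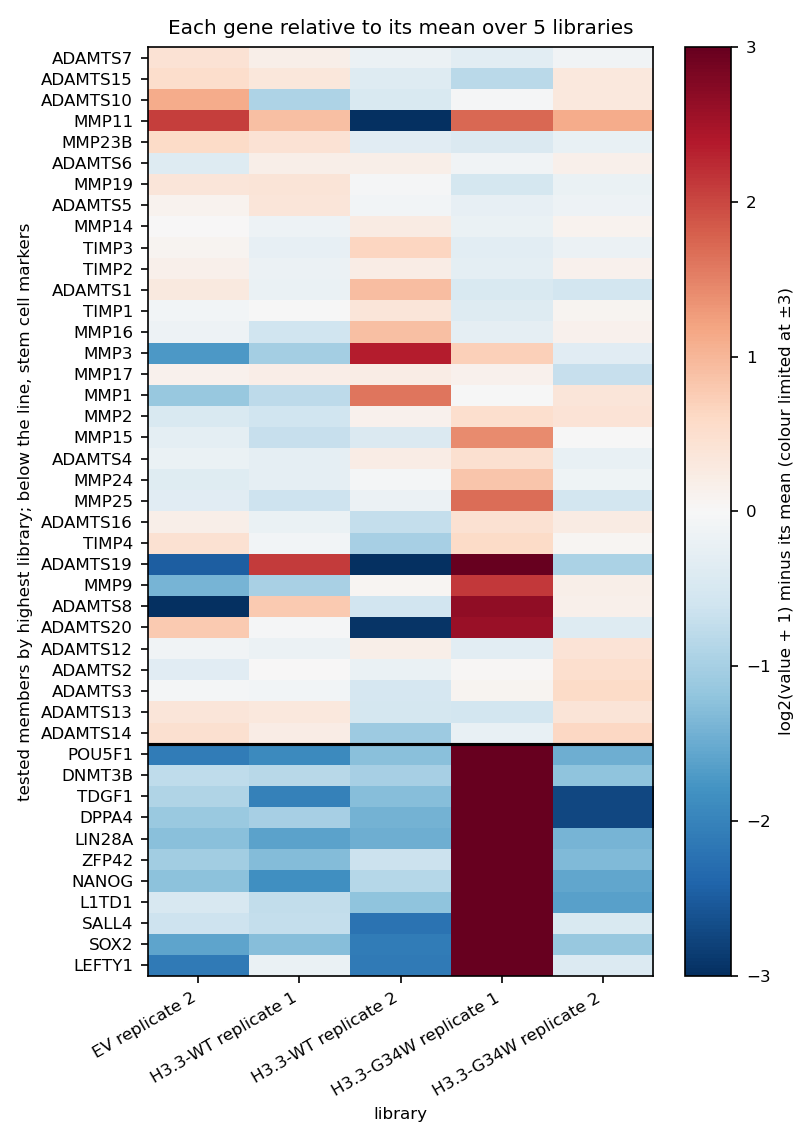
Each tested member's log2(value + 1) minus its mean over the 5 libraries, ordered by the library in which it is highest, with 11 stem cell markers under the line. H3.3-WT replicate 2 and H3.3-G34W replicate 1 hold the highest value of 9 and 11 members, and the markers are high only in the latter.

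Genes that act with these proteases were read from 5 lists, and 0 genes of any list passed the adjusted threshold between the mutant and wild-type lines. PCSK6, FBN1, DCN and BCAN were chosen after their values were seen. Of 10 tested genes among other inhibitors and ADAMTS-like proteins, the 2 with the highest mean were TFPI2, a matrix-bound serine protease inhibitor, at 3771, 3013, 11942.5, 3398 and 3951, and ADAMTSL1, a protease-like protein without a catalytic domain, at 3289, 3148, 2950.4, 1750.5 and 2429. H3.3-WT replicate 2 stood out for TFPI2, and both H3.3-G34W libraries were lowest for ADAMTSL1. Among 13 activators and their regulators, BSG, an inducer of MMP expression, was at 21459, 22127, 25369, 22706 and 28675, with overlapping groups. Of the 13, only the proprotein convertase PCSK6 had an unadjusted p under 0.05, where 2.7% of all genes did, and it was at 15.5, 38.2, 6.50, 160.5 and 57.6. The 9 ADAM sheddases were led by ADAM9 at 14429.5, 18157, 13352, 11439 and 18880.3 and ADAM15 at 10495, 8844, 9934, 6329 and 10599, with overlapping groups. The median log2 fold changes of these 3 lists were -0.17, 0.01 and 0.14.

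Among 18 tested matrix substrates, COL1A2 (given above) and SPARC, a collagen-binding glycoprotein, were the most abundant, and SPARC varied little, at 72998, 76069, 79359, 73806 and 85409. Of the 18, 3 had an unadjusted p under 0.05, where 2.7% of all genes did. FBN1, the main component of microfibrils, was at 25503, 22981, 22085.5, 14512 and 13263, with both H3.3-G34W libraries well below the other 3 and a log2 fold change of -0.70 ± 0.24 (unadjusted p = 0.018, adjusted p = 0.9998, limma). DCN, a small proteoglycan that binds collagen, was at 449, 506, 397, 201 and 298, with both mutant values under the other 3. BCAN, a proteoglycan of brain, was at 14.8, 10.7, 4.37, 42.8 and 42.3. The median log2 fold change of the substrates was -0.19, beside -0.06 over all genes. Of 19 tested transcription factors, 18 of the AP-1 and ETS families, which regulate many MMP promoters, and RUNX2 of the osteoblast lineage, JUN was at 17432, 11766, 17402, 10474 and 16212 and FOSL2 at 11334, 9842, 12038, 8402 and 13068, both with overlapping groups, and the median was -0.14. The chondrocyte markers summed to 1552, 1419.99, 1675, 1439 and 1789.9, led by MATN3, and the endothelial markers to 2149.9, 2089.9, 2120.1, 2324 and 876, led by TEK. TEK was at 1952, 1829, 1958, 1548 and 782, with both H3.3-G34W values under those of EV and H3.3-WT. KDR, another of the endothelial markers, was at 54.5, 78.3, 76.3, 656 and 26.6, highest in H3.3-G34W replicate 1.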

How the data were processed

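Poly(A) RNA from hFOB 1.19 cells was sequenced. The labels name a directional library kit, and the study's methods describe both this kit and another that does not mark strand, so strand is uncertain. Per the labels and the study's methods, the authors used kallisto against GRCh38 transcripts from Ensembl to estimate abundance. The estimates were summed by gene and normalised by the authors with DESeq2, so the deposited signal is an estimated count made comparable between libraries. They are not whole reads, so no count test was run, and depth is unknown.

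Values were analysed as log2(value + 1) with limma 3.58.1 (R 4.3.3), 1 mean per line over 5 libraries, a variance prior that follows mean expression, and Benjamini-Hochberg adjustment over the 16259 genes with a mean of at least 10; the threshold was an adjusted p of 0.05. The single EV library was assumed to vary like the others. P-values measure the spread between these libraries only. The fit was tested on simulated data. No gene was called at the smallest fold put in there and only part of them at the larger folds, so a count of 0 does not show that differences of these sizes were absent. Values in each library are given for members with a mean of at least 100, for any that passed, and for those whose H3.3-G34W libraries both lay beyond both H3.3-WT libraries with a log2 fold change past 1; of each list of partner genes, up to 2 with a high mean are named where none passed. Members and lists were chosen with earlier results of these data known. Alternatives were pseudocounts of 0.1 and 10, other filters (any value above 0, or a mean of at least 50), a constant prior, a replicate block, all 6 libraries, rescaling, each library left out, no EV library, and EV grouped with H3.3-WT; H3.3-G34W replicate 2 alone against that group was added after the data were seen. Gene positions came from RefSeq GRCh38.p14 by symbol for all 47 members, and transcript lengths from GENCODE by identifier for all 47. Figures were drawn with matplotlib 3.10.9.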

Additional observations from a re-analysis of the deposited data

Results flagged for a closer look

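EV replicate 1, which no comparison used, held values more than 2-fold above every other library for 9 members, while 33 of the 47 members and 28688 of all 35639 genes were at 0 in it and its column total was 157595150. All 9 genes lie on chromosomes 10, 11 or 12, and how many of all genes were raised in this way was not counted. On chromosome 11, ADAMTS15 was at 14201, MMP13 at 576.8, MMP7 at 260.6, ADAMTS8 at 247.5, MMP8 at 58.2 and MMP12 at 54.4. MMP19, on chromosome 12, was at 9063. ADAMTS14 and MMP21, on chromosome 10, were at 1194 and 53.7. No other library exceeded 538 for ADAMTS15, 334 for MMP19 or 13.3 for MMP13. Some members on these chromosomes were not raised: MMP17, on chromosome 12, was at 0 in this column and at up to 204.6 elsewhere. MMP10, MMP20, MMP26 and MMP27, on chromosome 11, were also at 0 in it. ADAMTS4, on chromosome 1, and ADAMTS2, on chromosome 5, were above 0 in it, at 78.0 and 19.3. What lies behind the values of this column was not tested.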

How the results depend on the processing

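Between the mutant and wild-type lines 0 genes were past the threshold (limma, adjusted p under 0.05) under each alternative except when single libraries were left out, where the count ranged from 0 to 13 (6 without H3.3-WT replicate 1, 1 without H3.3-WT replicate 2 and 13 without H3.3-G34W replicate 2); the cause was not tested. The count of members past it ranged from 0 to 1, the 1 being MMP11 without H3.3-WT replicate 1. For H3.3-WT against EV, leaving out single libraries gave 0 to 3 genes and 0 to 1 members, again MMP11 without H3.3-WT replicate 1, and a pseudocount of 0.1 gave 1 gene. For H3.3-G34W against EV, a pseudocount of 0.1 gave 1 gene and all other alternatives 0. A lone library was assumed to vary like the other groups. With the replicate block the counts were 0 in all 3 comparisons, while an unadjusted limma p under 0.05 was reached by 715 genes between the histone lines, 275 for the mutant against EV and 369 for the wild type against EV; the libraries share only a number, and the deviations of same-numbered libraries correlated at 0.0945 across genes. Of the 33 tested members, 19 kept the sign of the mutant minus wild-type difference under every alternative that tested them and 14 did not. Without H3.3-G34W replicate 1, 6 turned. ADAMTS8, ADAMTS20 and MMP9, among the 19, were not tested at a mean of at least 50. ADAMTS8 and ADAMTS20 reached the minimum mean only through H3.3-G34W replicate 1. The median log2 fold change of the members, 0.05, was -0.10 among genes with a mean of at least 50. Grouping EV with H3.3-WT gave 0 genes (735 by unadjusted p), and H3.3-G34W replicate 2 alone against that group, added after the data were seen, gave 0 (343 by unadjusted p).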
